A study of Drosophila melanogaster with 12 samples.

Results

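The 7 genes described here are Cyp4g1, Cpr, eloF, bond, Desat2, FASN2 and FASN3, which act in the making of cuticular hydrocarbons. They were taken by symbol, without regard to case, from a table of 17714 gene rows. The rule used no measured value, but the genes were chosen with earlier results of these data known. The table held poly(A) RNA from whole bodies of female fruit flies. Its 4 groups were old Ptth mutants, old wild type, young Ptth mutants and young wild type, with 3 libraries each and about 15 flies pooled per library. The labels name the genotypes ptth120BC2 for the mutants and wOB for the wild type, and the submitters' design gives ages of 5 weeks for old and 1 week for young flies. The mutated gene, Ptth, codes for prothoracicotropic hormone, a neuropeptide of the larval brain that times metamorphosis. Every cell of the mutant carries the lesion, and per the study the mutant allele had been backcrossed to the wild-type background. No oenocytes were isolated, so each value below is a level in the whole fly.

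Oenocytes are cells beneath the abdominal cuticle, often compared to hepatocytes because of their lipid metabolism. They build very-long-chain fatty acids from malonyl units with fatty acid synthases and elongases, place double bonds with desaturases, reduce the acids to aldehydes and remove the carbonyl carbon to give alkanes and alkenes. The hydrocarbons coat the cuticle, where they hold back water and serve as pheromones. In a whole-fly library fewer oenocytes and less RNA per oenocyte cannot be told apart, nor can RNA of the same gene from another tissue.

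Each library held between 16448805 and 28206866 reads assigned to genes, as recovered from the deposited values. The values are these reads divided by a size factor per library (normalised counts). Separate cultures are not stated for the replicates of a group, and the p-values cover only the variation among the libraries given. Markers of eye, flight muscle, gut, fat body and ovary were detected in all 12 libraries, as whole female flies would give. Ptth transcript itself was at 58.6, 54.8 and 43.6 normalised counts in old mutants, against 75.3, 76.3 and 76.8 in old wild type. It was at 28.3, 18.5 and 22.4 in young mutants, against 35.4, 39.9 and 25.5 in young wild type. The change in Ptth did not pass limma at either age (log2 -0.54, adjusted p = 0.232, and log2 -0.52, adjusted p = 0.133), and a transcript level is no firm check of an allele described as a small lesion. Transcripts of the male reproductive tract stood out in 3 young libraries labelled female, Ptth mutant young replicate 1 and wild type young replicates 1 and 2. A list of 28 such genes summed to between 6934 and 21320 normalised counts there, with 26 to 27 genes above 0. In the other 9 libraries the sum was between 33.4 and 76.7, with 10 to 19 genes above 0. Defining genes such as Mst84Dd and Acp29AB were at 0 in all of those 9. The main results on the young groups are therefore also given without these 3 libraries. Without them a single young wild type library remains, which is assumed to vary like the other groups.

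Fatty acid synthases stand at the start of the pathway. FASN2 is the synthase of methyl-branched hydrocarbons, and the gene lies on 2L from 3043947 to 3056143 (plus strand, Release 6 assembly), next to FASN1. FASN2 was measured at 5384, 5230.2 and 5219 normalised counts in old mutants, against 5143, 4779.6 and 6124 in old wild type. It was at 5438, 4404 and 3762 in young mutants, against 5923, 7427 and 4695 in young wild type. The old groups overlapped, with the mutants inside the wild type range, and in young flies mutant replicates 2 and 3 lay below every wild type library.

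FASN3 is an oenocyte fatty acid synthase whose loss in larvae lets fluid into the tracheal system. The gene lies on 3L from 25752859 to 25762779 on the minus strand, and no annotated gene overlaps it. Old mutants had 7648, 6526 and 6481 normalised counts of FASN3, against 6828, 7248 and 7449 in old wild type. Young mutants had 5356, 3131 and 3995, against 5684, 6665 and 4262 in young wild type. Every old library lay above every young library of its own genotype, and the genotypes overlapped at both ages.

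Elongases then lengthen the acyl chain. eloF is a female-biased elongase needed for the long dienes that act as female pheromones (3R from 9814161 to 9815158, plus strand). It was at 2445, 2349 and 2120.4 normalised counts in old mutants, against 2289, 1989.5 and 2385 in old wild type. In young flies eloF was at 2149.7, 1706 and 2179.8 in mutants, against 1793, 2106 and 1587 in wild type. The groups overlapped in each comparison, and the 3 lowest values were all from young flies.

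The other elongase is bond, which makes very-long-chain acids in oenocytes and also acts in the male germ line, where it is needed for cytokinesis of spermatocytes. It lies on 3R from 22550680 to 22556494 on the plus strand. An antisense RNA shares 184 exon bases with it, and whether the counting used strand is not stated, so reads from the pair cannot be told apart. bond was at 791, 783 and 643 normalised counts in old mutants, against 907, 627 and 838 in old wild type. It was at 961, 684 and 760.1 in young mutants, against 942, 1116 and 706 in young wild type. Its groups overlapped throughout, with the 3 highest young values in the libraries that held male transcripts.

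Desat2 sets the double-bond positions of the cuticular dienes that females of some natural strains carry, and it is silenced in many others by a promoter deletion. It lies on 3R from 12436248 to 12437857 on the plus strand, beside Desat1, with 41 exon bases shared with genes on the other strand. Values were near the filter of 10 normalised counts in every group. Old mutants had 17.7, 17.9 and 9.69, against 13.1, 3.82 and 7.94 in old wild type. Young mutants had 7.82, 14.1 and 8.13, against 12.2, 8.77 and 9.82 in young wild type. Only 5 of the 12 libraries reached 10, and each value rests on 4 to 19 reads.

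Cyp4g1 carries out the last step, a cytochrome P450 that removes the carbonyl carbon from aldehydes. It lies on X from 467057 to 469335 on the minus strand, inside the span of CG32816 but with 0 exon bases shared. Its level was the sixth highest of all gene rows by mean count. Cyp4g1 reached 140030, 127303 and 113328 normalised counts in old mutants, against 128682, 108955 and 133736 in old wild type. It reached 116257, 90327 and 96438 in young mutants, against 112584, 150501 and 89807 in young wild type. The highest and the lowest of the 12 values were both in young wild type. As a share of all reads assigned to genes, Cyp4g1 took 0.569% ± 0.0514 in old mutants and 0.572% ± 0.0490 in old wild type. It took 0.447% ± 0.0635 in young mutants and 0.528% ± 0.130 in young wild type (SD, n = 3 each).

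Cpr is the reductase that hands electrons from NADPH to Cyp4g1 and to other P450 enzymes (2L from 6338836 to 6346280, plus strand). It was the steadiest of the 7 genes. Old mutants had 16647, 15868 and 14961 normalised counts, against 15498, 14301 and 15784 in old wild type. Young mutants had 16718, 14156 and 13929, against 15457, 17265 and 13505 in young wild type. All groups overlapped.

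**Figure D1:**
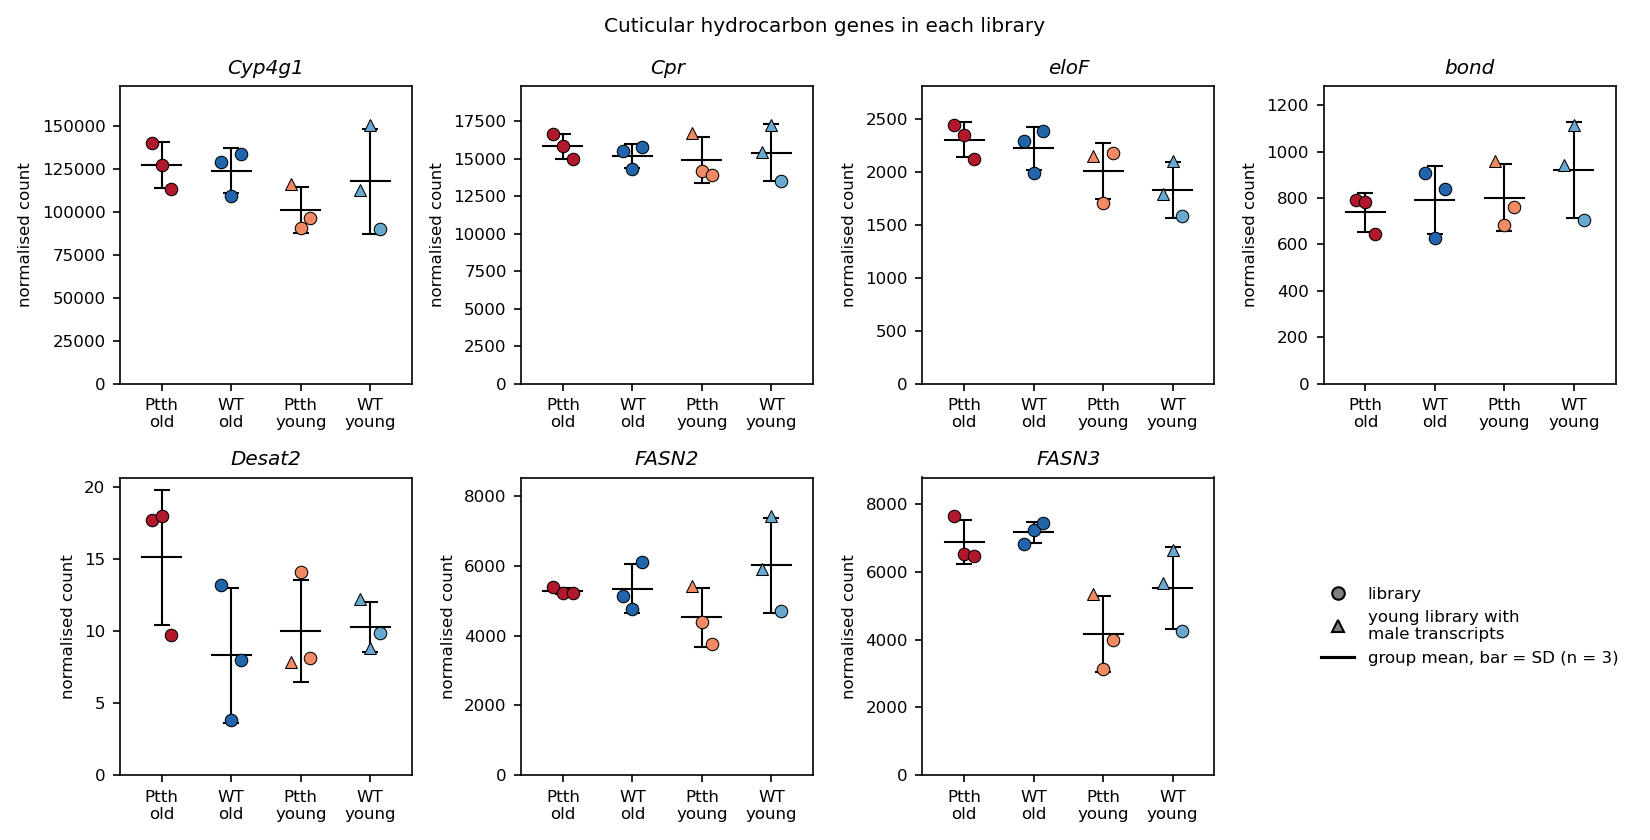
Normalised count (vertical axis, from 0) of each of the 7 genes in each library, by group on the horizontal axis. Points are libraries, triangles are the 3 young libraries with male transcripts, and lines with bars are the group mean and SD (n = 3). Neighbouring groups overlap for every gene, and the FASN3 points of old flies lie above those of young flies of the same genotype.

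The members spanned a wide range of levels. Per kilobase of exon, Cyp4g1 averaged 51483 normalised counts over the 12 libraries, Cpr 4588 and eloF 2242. FASN3 averaged 803 per kilobase, FASN2 649, bond 423 and Desat2 8.05. Among partners of the pathway, on the same scale, the broadly used desaturase Desat1 averaged 13511 and the female diene desaturase Fad2 (desatF) 4364. The elongation-cycle reductase spidey averaged 2963 per kilobase, the general synthase FASN1 2949 and the oenocyte acyl-CoA reductase FarO 233.

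Spread over libraries differed between members. The highest over the lowest of the 12 normalised counts was 1.28 for Cpr, 1.54 for eloF, 1.68 for Cyp4g1 and 1.78 for bond. It was 1.97 for FASN2, 2.44 for FASN3 and 4.70 for Desat2. Ordered by group mean, the highest group was old mutants for Cyp4g1, Cpr, eloF and Desat2, old wild type for FASN3 and young wild type for bond and FASN2. Young mutants were lowest for Cyp4g1, Cpr, FASN2 and FASN3. In that order, neighbouring groups overlapped for all 7 genes.

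The first comparison asked whether old Ptth mutants differ from old wild type. None of the 7 genes was called, and apart from Desat2 their log2 changes lay between -0.09 and 0.06. To be called, a gene needed a limma adjusted p below 0.05 together with more than a 1.5-fold change. Of all 11403 genes tested, 4.17% were called, and with edgeR and DESeq2 on recovered reads 0 of 7 members were called as well. At an unadjusted p under 0.05, limma gave 0 of 7 members, against 16.5% of all genes. The median log2 change was 0.04 over the members and 0.00 over all genes tested. For 6 of the 7 genes, all but Desat2, the 95% interval lay within a 1.5-fold change in either direction. Cyp4g1 changed by log2 0.04 (interval -0.33 to 0.40) and FASN3 by -0.06 (interval -0.46 to 0.34). Desat2 differed by 0.88 ± 0.48 (SE) on the log2 scale with an interval from -0.18 to 1.94 (limma adjusted p = 0.429). That interval holds both no change and changes past 1.5-fold. Summed markers of other tissues differed in this comparison with no overlap between groups. A list of fat body and yolk genes summed to 517960 to 661517 normalised counts in old mutants, against 372946 to 497189 in old wild type. The ovary and eggshell list summed to 225387 to 293659 in old mutants, against 171334 to 203159 in old wild type. The germline gene osk of that list overlapped, at 19410 to 21571 in old mutants, against 19171 to 19872 in old wild type. Their part in the members' values was not tested.

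In young flies the same question gave 0 of 7 members called by limma, by edgeR and by DESeq2, where limma called 4.81% of all genes. The lowest changes were those of both synthases. FASN2 differed by log2 -0.40 ± 0.16 (SE, 95% interval -0.75 to -0.04, limma adjusted p = 0.117). FASN3 differed by log2 -0.42 ± 0.18 (interval -0.82 to -0.02, limma adjusted p = 0.137). These 2 had an unadjusted p under 0.05, as did 32.4% of all genes tested. The other members lay between log2 -0.20 for Cyp4g1 and 0.14 for eloF. The median was -0.19 over the members, against -0.02 over all genes. Mutant and wild type libraries overlapped for all 7, where 25.3% of all genes did not overlap. With one spread shared by the 4 groups, the intervals of Cyp4g1, Cpr and eloF lay within a 1.5-fold change. For Cyp4g1 the lower limit was log2 -0.56, close to that bound. The SD of its normalised counts was 30660 in young wild type, against 13094.5 to 13555 in the other groups. Its difference ran from log2 -0.37 without wild type young replicate 3 to 0.06 without the libraries with male transcripts. The bound is therefore not firm for Cyp4g1.

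The libraries with male transcripts bear on this comparison, since they are 1 of 3 young mutant and 2 of 3 young wild type libraries. For 5 of the 7 genes (Cyp4g1, Cpr, bond, FASN2 and FASN3), all 3 of those libraries were above the 3 other young libraries, as they were for 24.1% of all genes tested. FASN3, for instance, was at 5356 to 6665 normalised counts in the 3 libraries, against 3131 to 4262 in the other 3. FASN2 was at 5438 to 7427, against 3762 to 4695, and Cyp4g1 at 112584 to 150501, against 89807 to 96438. Values of eloF and Desat2 overlapped between the same sets. Without the 3 libraries, the young difference between genotypes was log2 -0.27 for FASN3, -0.21 for FASN2 and 0.06 for Cyp4g1 (limma adjusted p = 0.610, 0.714 and 0.961). It was 0.28 for eloF (limma adjusted p = 0.616) and between 0.03 and 0.12 for bond, Cpr and Desat2, and 0 of 7 members were called. The sign of the difference thereby turned for Cyp4g1, Cpr, bond and Desat2. The part of the male transcripts in these levels was not tested. FASN3 was called in 3 other settings: with library weights (log2 -0.59, limma adjusted p = 0.000420), without wild type young replicate 3 (-0.60, adjusted p = 0.0179) and without Ptth mutant young replicate 1 (-0.62, adjusted p = 0.0397).

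**Figure D2:**
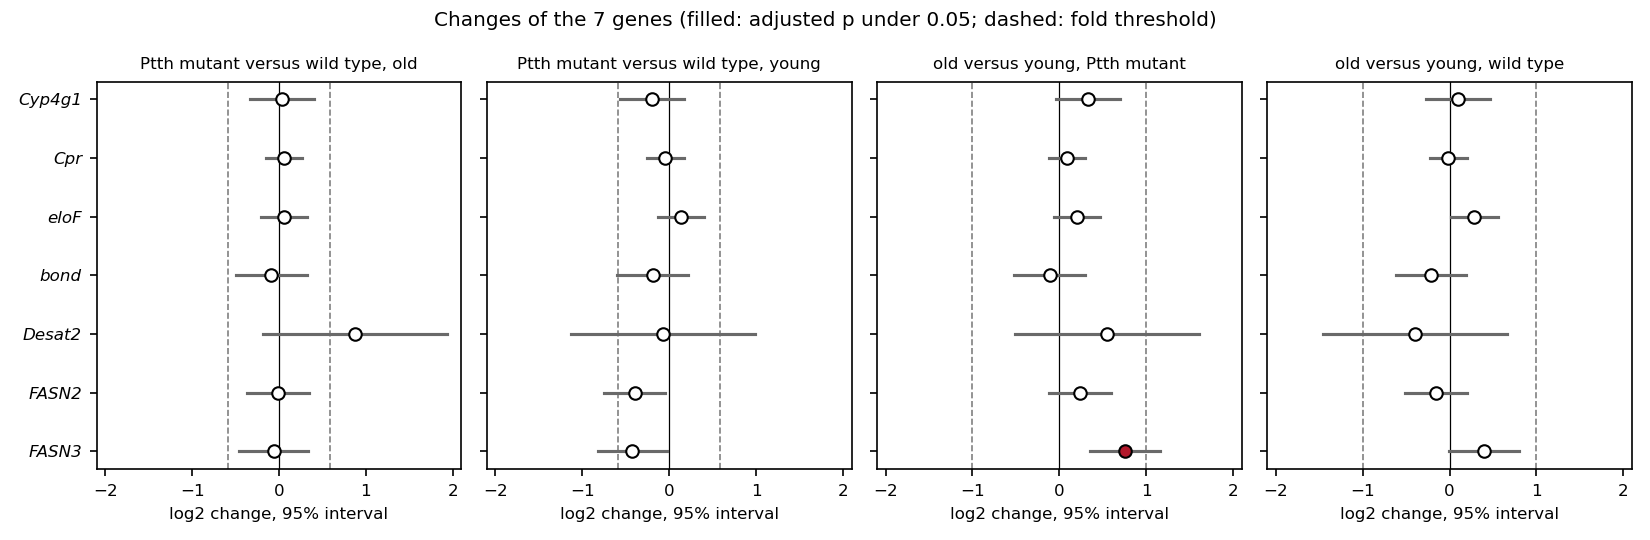
Log2 change (horizontal axis) of each gene with its 95% interval from limma in 4 comparisons. Dashed lines mark the fold needed for a call, 1.5 between genotypes and 2 between ages, and a filled point marks an adjusted p under 0.05. FASN3 in mutants, old versus young, at log2 0.76, is the filled point, and Desat2 has the widest intervals.

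Age was compared within each genotype, where a call needed a fold change over 2. In mutants, FASN3 was higher in old flies by log2 0.76 ± 0.18 (SE, 95% interval 0.36 to 1.16, limma adjusted p = 0.0311), a 1.69-fold change and under the fold needed. Its 3 old values, from 6481 to 7648 normalised counts, lay above its 3 young values, from 3131 to 5356. An adjusted p under 0.05 at any fold was reached by 1 of 7 members, against 5.82% of all genes, and groups that did not overlap were seen for 1 of 7 members and 24.7% of all genes. None of the 7 was called by limma, edgeR or DESeq2, where limma called 1.81% of genes. At an unadjusted p under 0.05 there was 1 member (FASN3), against 16.2% of all genes. Cyp4g1 differed by log2 0.33 ± 0.17 (limma adjusted p = 0.394) and Desat2 by 0.55 ± 0.48 (limma adjusted p = 0.740). The median over the members was 0.24, against -0.02 over all genes.

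This FASN3 result was near its threshold. It kept an adjusted p under 0.05 in 17 of 24 other settings. It missed with edgeR (adjusted p = 0.0625), with no filter on low values in limma (adjusted p = 0.0544), and without any 1 of 5 mutant libraries (limma adjusted p between 0.0739 and 0.143). Leaving out Ptth mutant young replicate 2, the lowest of all, gave the smallest difference, log2 0.57 (limma adjusted p = 0.128). Without the 3 libraries with male transcripts the difference was log2 0.96 (limma adjusted p = 0.000784). In the same setting Cyp4g1 was at log2 0.44 (limma adjusted p = 0.103) and FASN2 at 0.37 (0.0518), against 0.24 with all libraries, and 0 of 7 members were called. Markers of other tissues also separated the ages in mutants with no overlap. The muscle myosin gene Mhc was at 10734 to 12287 normalised counts in old mutants, against 19616 to 23608 in young mutants. The yolk protein gene Yp1 was at 84505 to 98150 in old mutants, against 64933 to 70247 in young mutants. The fat body and yolk list, with 7 or 8 of 8 genes above 0 in each library, summed to 517960 to 661517 in old mutants, against 413353 to 444092 in young mutants. The ovary and eggshell list, with 14 of 14 genes above 0, summed to 225387 to 293659 in old mutants, against 165852 to 203160 in young mutants. The germline gene osk of that list went the other way, at 19410 to 21571 in old mutants, against 22151 to 25044 in young mutants. Their part in the FASN3 difference was not tested.

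In wild type, FASN3 was at log2 0.40 ± 0.18 (SE) in old relative to young flies (95% interval -0.0048 to 0.80, limma adjusted p = 0.198). Old and young values did not overlap, as for 22.3% of all genes, and FASN3 was the 1 member of 7 with this pattern. Without the 3 libraries with male transcripts, its difference was log2 0.75 (limma adjusted p = 0.0121), again under a 2-fold change. eloF differed by log2 0.29 ± 0.12 (interval 0.02 to 0.55, limma adjusted p = 0.173), the 1 member with an unadjusted p under 0.05, against 25.7% of all genes. Without those 3 libraries eloF was at log2 0.48 (limma adjusted p = 0.0925) and Cyp4g1 at 0.46 (0.225), against 0.10 for Cyp4g1 with all libraries. FASN2 and bond turned sign, to log2 0.18 and 0.15, against -0.15 and -0.21 with all libraries, and 0 of 7 members were called. Limma, edgeR and DESeq2 called 0 of 7 members here, and limma called 3.05% of genes. With all libraries, and one spread shared by the 4 groups, the intervals of Cyp4g1, Cpr, eloF and FASN2 lay within a 1.5-fold change. The upper limits were log2 0.47 for Cyp4g1 and 0.55 for eloF, and no such limit is given without the libraries with male transcripts. The median was -0.01 over the members and 0.03 over all genes tested. Mhc separated the ages in wild type too, at 9198 to 12515 normalised counts in old and 24618 to 30978 in young wild type. The sums of the fat body and yolk list and of the ovary and eggshell list overlapped between these ages. The part of such markers in the members' values was not tested.

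Whether the age difference itself differed between genotypes was tested as an interaction. No member passed in limma, edgeR or DESeq2 at an adjusted p under 0.05, and 0.158% of all genes did in limma. None of the 7 had an unadjusted p under 0.05 in limma, against 6.79% of all genes. For FASN3 the interaction was log2 0.36 ± 0.26 (SE, 95% interval -0.21 to 0.93, limma adjusted p = 0.779). The value for FASN2 was 0.39 ± 0.23 (interval -0.12 to 0.89, limma adjusted p = 0.779). With library weights both passed, at log2 0.54 for FASN3 and 0.44 for FASN2 (limma adjusted p = 0.0267 and 0.0256), and the same setting passed 3041 genes in all, against 18 without weights. Without the libraries with male transcripts the values were smaller, at log2 0.21 for FASN3 and 0.19 for FASN2 (limma adjusted p = 1 for both), and Cyp4g1 was at -0.02, against 0.23 with all libraries.

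Across the 12 libraries 5 of the 6 other members correlated with Cyp4g1, and pairs among the others varied. The correlation of each with Cyp4g1 was computed on log2 values as 6 relations, with 100000 permutations and Benjamini-Hochberg adjustment. The permutations shuffled all 12 libraries without regard to group or male transcripts, so their p-values also take in differences between such sets of libraries. Cpr, which serves Cyp4g1, had Pearson's r = 0.90 and Spearman's rho = 0.90 (adjusted permutation p = 0.000900 and 0.00138). For FASN3 r was 0.84 and rho 0.76 (adjusted permutation p = 0.00174 and 0.0134), and for FASN2 0.79 and 0.78 (0.00318 and 0.0121). For eloF r was 0.75 and rho 0.71 (adjusted permutation p = 0.00757 and 0.0193), and for bond 0.61 and 0.64 (0.0430 and 0.0365). Desat2 showed r = 0.17 and rho = 0.10 (adjusted permutation p = 0.592 and 0.764). An r with Cyp4g1 at least as high as that of Cpr was found for 0.430% of the 11402 other genes tested, and as high as that of FASN3 for 1.59%. The share was 3.15% for FASN2, 4.70% for eloF, 11.96% for bond and 45.7% for Desat2. Of the 21 pairs of members, 12 had r over 0.5. Among the 10 pairs without Cyp4g1 and Desat2, r was between 0.24 and 0.80, with the lowest values for eloF with bond (0.26), eloF with FASN2 (0.24) and bond with FASN3 (0.24). Desat2 had r between -0.09 and 0.25 with the other members. Without the 2 libraries farthest from the median of Cyp4g1, wild type young replicates 2 and 3, r was 0.82 for Cpr, 0.88 for FASN3, 0.73 for FASN2 and 0.78 for eloF. For bond it was then 0.41, so that relation leans on those libraries. Without the libraries with male transcripts (9 left) r was 0.96 for Cpr, 0.89 for eloF and for FASN3, 0.79 for FASN2 and 0.58 for bond. All values share a size factor within a library.

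**Figure D3:**
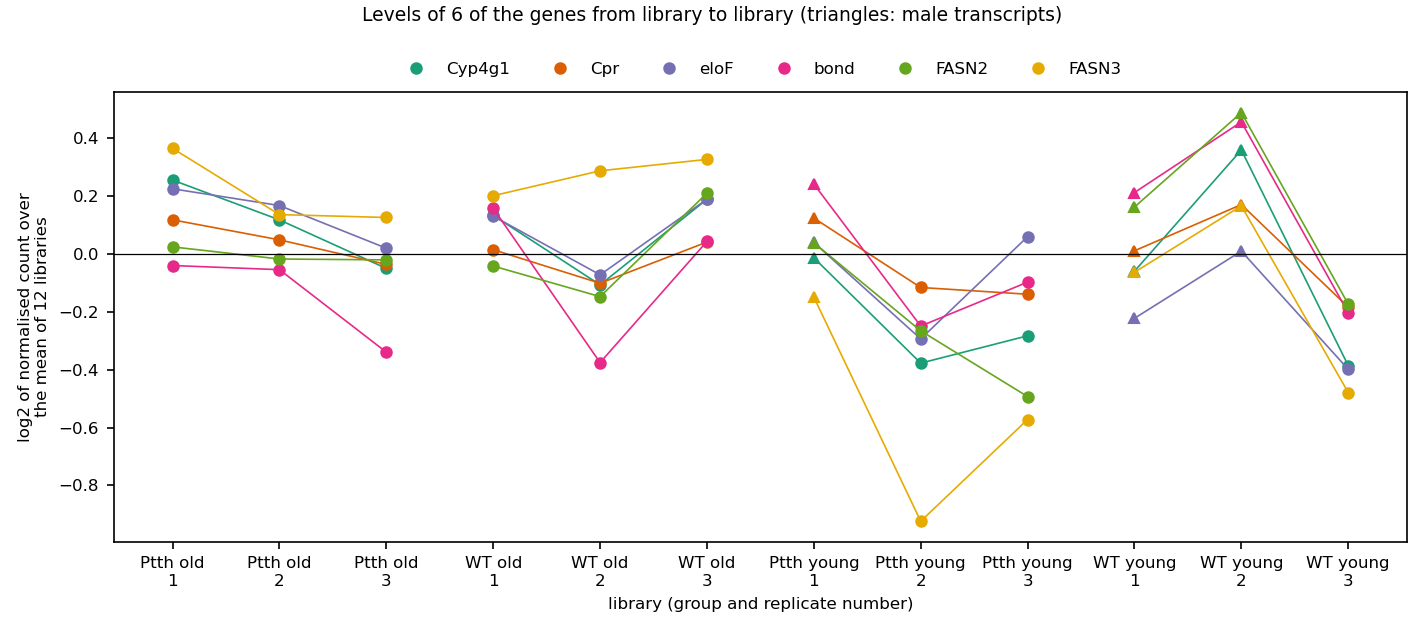
Log2 of the normalised count over the gene's mean of 12 libraries (vertical axis) for 6 of the genes in each library (horizontal axis), with Desat2 left out for its low counts. Lines join libraries of a group, in no order, and triangles are libraries with male transcripts. Cyp4g1, Cpr, bond and FASN2 have their highest value in wild type young replicate 2, where eloF and FASN3 do not, Cyp4g1, Cpr and eloF have their lowest in wild type young replicate 3, and FASN3 in Ptth mutant young replicate 2 is the lowest point.

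Ratios between members within a library were also taken. They were chosen after the values were seen and are given as a description, with no test. The log2 ratio of FASN3 to FASN2 was 0.51, 0.32 and 0.31 in old mutants, against -0.02, -0.49 and 0.09 in young mutants. It was 0.41, 0.60 and 0.28 in old wild type, against -0.06, -0.16 and -0.14 in young wild type. Old libraries were above young ones in both genotypes with no overlap, where 21.9% of all genes did not overlap in their ratio to FASN2 in mutants and 20.8% in wild type. The genotypes overlapped at each age, where 21% of all genes did not in old and 12.4% did not in young flies. Without the libraries with male transcripts the young ratios were -0.49 and 0.09 in the 2 mutant libraries and -0.14 in the wild type library, still below the old ones.

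The ratio of bond to Cyp4g1 ran the other way. It was -7.47, -7.34 and -7.46 on the log2 scale in old mutants, against -6.92, -7.04 and -6.99 in young mutants. It was -7.15, -7.44 and -7.32 in old wild type, against -6.90, -7.08 and -6.99 in young wild type. Old libraries were below young ones in both genotypes, by 0.44 in mutants and 0.31 in wild type. Relative to Cyp4g1, 3 of 6 members did not overlap between ages in mutants (Cpr and bond lower in old, FASN3 higher), against 31.5% of all genes. In wild type 4 of 6 did not (bond and FASN2 lower in old, eloF and FASN3 higher), against 22.4% of all genes. Between genotypes none of the 6 ratios separated in old flies, against 20.8% of all genes. In young flies 2 of 6 did, against 10.8%, with eloF over Cyp4g1 higher and FASN2 over Cyp4g1 lower in mutants. That eloF ratio averaged -5.65 ± 0.16 in young mutants and -5.98 ± 0.17 in young wild type (SD, n = 3 each). Without the libraries with male transcripts, the 1 young wild type library left had an eloF ratio of -5.82, against a mean of -5.60 in the 2 young mutant libraries. The age difference of this ratio in wild type was then 0.02, against 0.19 with all libraries. Those of bond, FASN2 and FASN3 in wild type were then -0.31, -0.28 and 0.29, against -0.31, -0.25 and 0.30. In mutants the age differences were -0.41 for bond, -0.27 for Cpr and 0.52 for FASN3, against -0.44, -0.24 and 0.43.

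**Figure D4:**
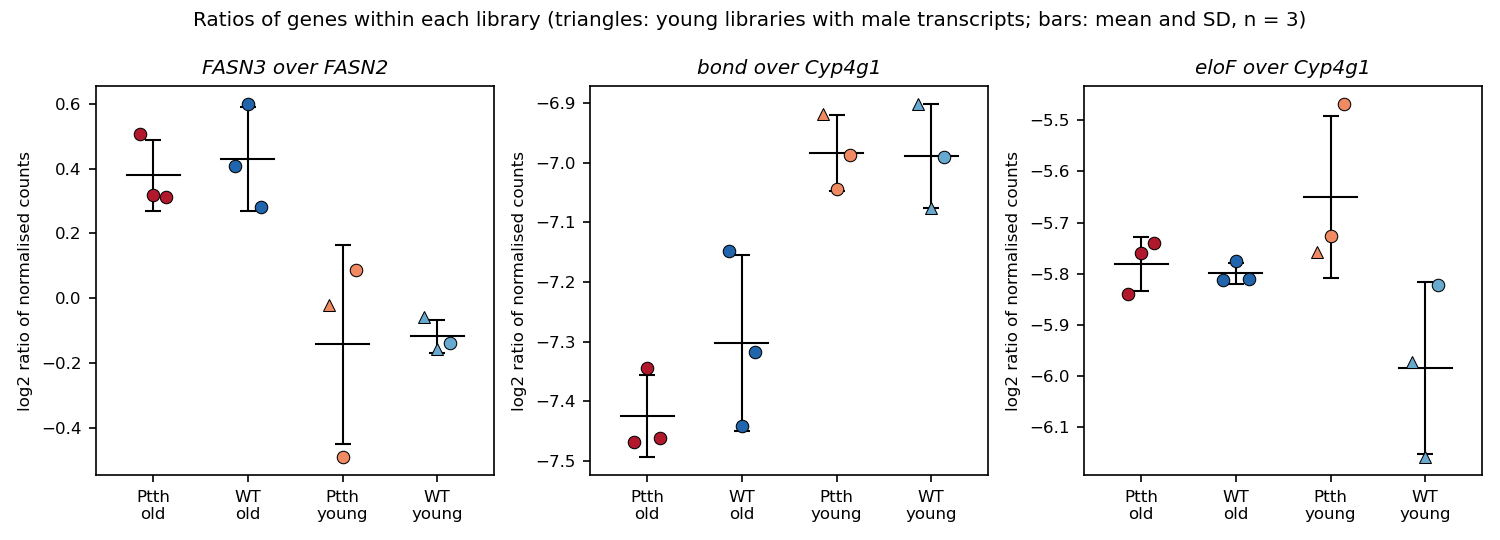
Log2 ratio of normalised counts within each library (vertical axis) for 3 pairs of genes, by group. Points are libraries, triangles are young libraries with male transcripts, and bars are the mean and SD (n = 3). FASN3 over FASN2 is higher and bond over Cyp4g1 lower in old than in young flies of each genotype.

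Both oenocyte synthases were also set against FASN1, the general synthase, which is known from the fat body. In old mutants the log2 ratio of FASN2 to FASN1 averaged -2.44 ± 0.14, against -2.02 ± 0.17 in old wild type. In young mutants it averaged -2.62 ± 0.22, against -2.06 ± 0.05 in young wild type (SD, n = 3 each). Both FASN2 and FASN3 were lower relative to FASN1 in mutants at both ages with no overlap. In old flies 54.7% of all genes did not overlap in their ratio to FASN1, and in young flies 20.9%, so the old separation was shared by most genes. Without the libraries with male transcripts the young ratios to FASN1 averaged -2.73 for FASN2 and -2.93 for FASN3 in 2 mutant libraries, against -2.04 and -2.18 in the wild type library. FASN1 itself was at 26082 to 30738 normalised counts in old mutants, against 18631 to 24634 in old wild type, a log2 difference of 0.40 ± 0.16 (SE, limma adjusted p = 0.223).

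The wider pathway was read from 7 lists of 53 further genes, of which 46 were tested. In old mutants against old wild type 1 of the 46 was called, where 4.17% of all genes were, and in young mutants against young wild type 1, where 4.81% were. With age 1 of the 46 was called in mutants and 3 in wild type, where 1.81% and 3.05% of all genes were. None of the 15 elongases tested was called in any comparison, nor any of the 3 genes of fatty acid synthesis, the 6 desaturases, the 4 partners of the elongation cycle or the 2 P450 partners, with limma. 1 elongase, CG33110, was lower with age in wild type by log2 -0.65 (limma adjusted p = 0.0115), under the fold needed for a call. At an unadjusted p under 0.05 there were 10 of the 46 genes between old genotypes and 11 between young genotypes, against 16.5% and 32.4% of all genes. There were 8 with age in mutants and 16 with age in wild type, against 16.2% and 25.7% of all genes. edgeR called the same counts of 1, 1, 1 and 3 genes in these comparisons, and DESeq2 called 3, 1, 1 and 4. The genes that DESeq2 added were CG5065 and CG8303 between old genotypes and the elongase Elo68alpha with age in wild type. In the interaction limma and edgeR passed 0 of the 46 and DESeq2 passed 1, salm, with 4 at an unadjusted p under 0.05 in limma, against 6.79% of all genes. Elo68alpha, known for its role in a male pheromone, was at 48.9, 65.9 and 146 normalised counts in the 3 libraries with male transcripts and at most at 4.91 in the other 9. Over the 46 genes the median log2 change was 0.08 between old genotypes and -0.21 between young ones, against 0.00 and -0.02 over all genes. With age it was -0.02 in mutants and -0.22 in wild type, against -0.02 and 0.03. Among the partners Desat1 was at log2 0.32 ± 0.11 and FarO at 0.50 ± 0.22 in old mutants relative to old wild type (SE, limma adjusted p = 0.133 and 0.273). Their groups did not overlap in that comparison, as for 26.4% of all genes. Fad2 was at log2 0.13 and spidey at 0.11 there (limma adjusted p = 0.765 and 0.584).

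Of the fatty acyl-CoA reductases, 13 of 17 were tested, and CG13091 (Sgp in the current annotation, 2L from 8519690 to 8521809) changed most. It was at 252, 319.8 and 195 normalised counts in old mutants, against 65.7, 53.4 and 47.7 in old wild type. Young mutants had 1585, 1065 and 1564, against 579.7, 1712 and 429 in young wild type. It was higher in old mutants than in old wild type by log2 2.16 ± 0.40 (SE, limma adjusted p = 0.00764). With age CG13091 fell by 2.46 on the log2 scale in mutants and fell by 3.75 in wild type (limma adjusted p = 0.00317 and 0.000145). The interaction was log2 1.29 ± 0.57 (limma adjusted p = 0.723), and 0.58 without the libraries with male transcripts (adjusted p = 1). In young flies the genotypes differed by log2 0.88 (limma adjusted p = 0.156), and without the libraries with male transcripts by 1.59 (limma adjusted p = 0.0296). A second reductase, CG1441, was lower with age in wild type by log2 -1.12 (limma adjusted p = 0.00264), with 188, 126 and 172 normalised counts in old and 354, 444 and 271 in young wild type. Without the libraries with male transcripts that call was lost (log2 -0.76, limma adjusted p = 0.0758). It also fell under a 2-fold change, at log2 -0.95 and -0.96, without wild type young replicate 2 and without wild type old replicate 2.

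Of 3 regulators of oenocytes, salm was called. It encodes a zinc-finger factor that specifies oenocytes in the embryo and also directs fibrillar flight muscle. Young mutants had 187, 149.5 and 150.4 normalised counts of salm, against 393, 436 and 261 in young wild type. The difference was log2 -1.13 ± 0.20 (SE, limma adjusted p = 0.00613), and -0.80 without the libraries with male transcripts (limma adjusted p = 0.202). With only the young groups in the model the adjusted p of limma was 0.0504. With age salm fell by 1.53 on the log2 scale in wild type (limma adjusted p = 0.000648), and without those libraries it fell by 1.09 (adjusted p = 0.0211). It was not called in old mutants against old wild type (log2 0.11, limma adjusted p = 0.902) or with age in mutants (log2 -0.29, limma adjusted p = 0.640). The flight muscle actin Act88F was at 1223 to 1640 normalised counts in young mutants, against 4959 to 11359 in young wild type, and at 985 to 1350.2 in old wild type. Its part in the salm difference was not tested. The regulators svp and Hnf4, a nuclear receptor of oenocyte lipid metabolism, were not called.

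**Figure D5:**
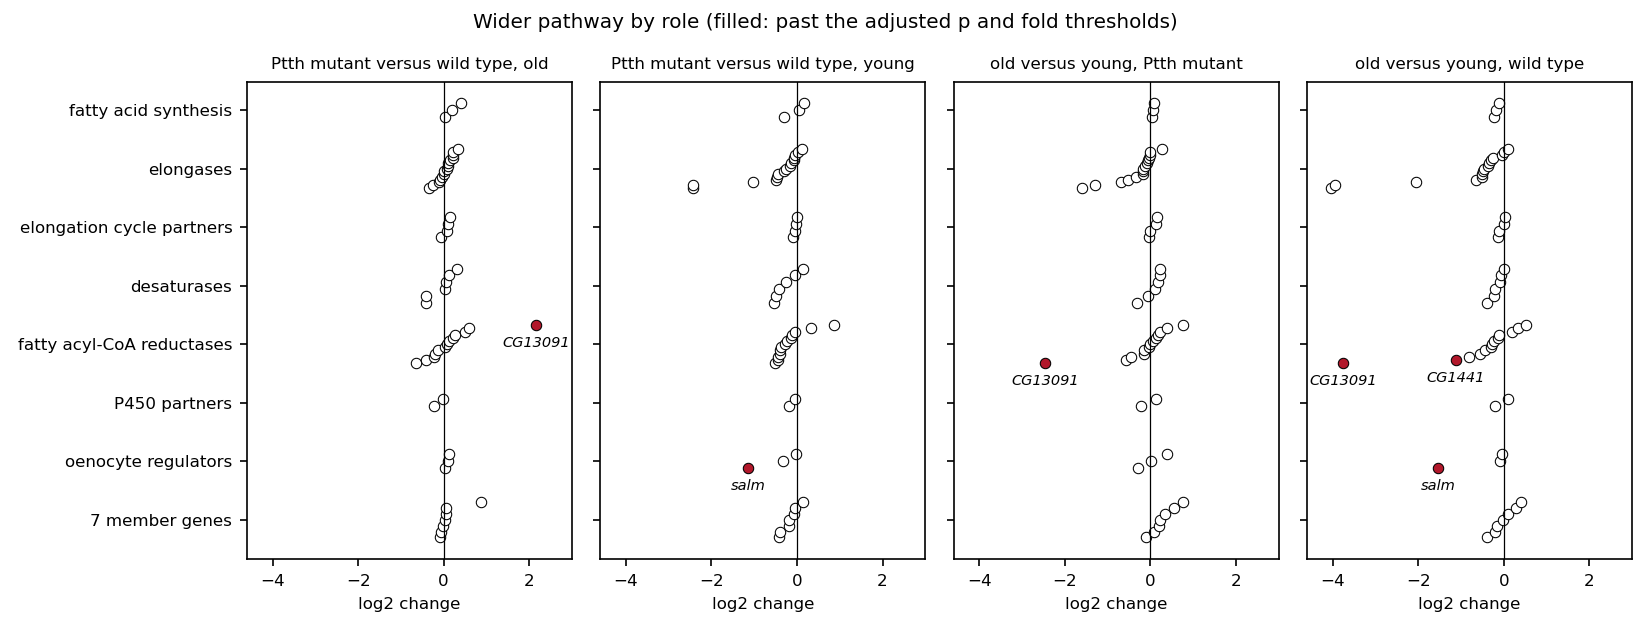
Log2 change (horizontal axis) of each gene tested in the wider pathway lists and of the 7 genes, by role, in 4 comparisons. Filled and named points passed both the adjusted p and the fold threshold. None of the members is filled, FASN3 with age in mutants lies at log2 0.76 and Desat2 between old genotypes at 0.88, and CG13091, CG1441 and salm are the filled points.

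For each member the 3 genes with the most similar profile were found by Pearson's r of log2 values over the 12 libraries, among all genes tested. The closest to FASN3 was CG17560, an acyl-CoA reductase of the lists above (r = 0.96). It was at 3911, 3344 and 3214 normalised counts in old mutants, against 2518, 1693 and 2017 in young mutants. This was a log2 difference of 0.76 ± 0.18 (SE, limma adjusted p = 0.0283), and in wild type it was 0.52 ± 0.18 (limma adjusted p = 0.111). The next closest to FASN3 were exex and CG34203 (r = 0.95 for each). The closest to Cyp4g1 were CG14526, CG14195 and Fatp, a fatty acid transport protein (r = 0.96 for each). The closest to FASN2 was the circadian factor Clk (r = 0.97), followed by CG32812 and Tusp (r = 0.96 for each). The closest to eloF was Obp99c (r = 0.96), with CG11601 (0.95) and Gbp2 (0.93) after it. For bond they were CG5045, CG4928 and wbl (r = 0.94 for each), and for Cpr CG13965, CG31343 and CG9394 (r between 0.92 and 0.94). Desat2 had the weakest match, slow at r = 0.82, then Cyp18a1 (0.80) and asRNA:CR44984 (0.79). These values are the highest of 11402 correlations each and are a description only.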

How the data were processed

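The authors sequenced poly(A) RNA of whole female flies and, per the labels, processed reads with STAR 2.7.3a on BDGP6, HTSeq 0.11.2 and DESeq2 1.20.0. Their deposited table holds a normalised signal, each gene's reads over a size factor of its library, and 100% of values gave whole reads within 0.01. The labels describe different library preparations without saying which library had which. The labels and the paper name the genotypes and ages differently, and the groups follow the labels.

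Genes with at least 10 normalised counts in at least 3 of 12 libraries (11403 of 17714) were tested on log2(value + 1) in limma 3.58.1 (R 4.3.3, one model of 4 groups, eBayes with trend, two-sided, Benjamini-Hochberg over all genes). Fold changes of low genes are thereby understated. Whole reads recovered from the table went through edgeR 4.0.16 and DESeq2 1.42.0 as well, and other alternatives changed the pseudocount, filter, scaling, libraries, replicate block and weights. The procedure was also run on simulated data with planted changes, in which no library was given male transcripts, and the outcome is not given here. Named were the 7 members, up to 6 called pathway genes per comparison with a mean of at least 50, FASN1, Desat1, Fad2, spidey and FarO, and the 3 closest genes to each member. FASN3's reductase match, the elongase CG33110 and the ratios were followed up after values were seen. The members and lists were chosen with earlier results of these data known. Positions come from a later Release 6 annotation, which held 10513 of the tested symbols. Desat2 had the fewest counts of the members and the widest intervals, and the part of depth in these was not tested.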

Additional observations from a re-analysis of the deposited data

How the results depend on the processing

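Over 24 alternative settings, the 7 genes kept their side of the threshold in old mutants against old wild type and in both age comparisons, with 0 of 7 called throughout. Between young genotypes 1 gene was called with library weights, and 0 to 1 when each library was left out in turn. For the interaction 2 genes passed with library weights and 0 when each library was left out. The weights did not reach their convergence tolerance. Of 828 member values under alternatives, 5 were called and 36 had another sign than the reported value, none of these called in either fit. Over all genes, the number called between young genotypes was 549, with 234 from the young groups alone, 208 without the libraries with male transcripts, 2635 with library weights and 300 to 2215 with each library left out (2215 without wild type young replicate 3). Between old genotypes it was 475, with 834 under library weights and 297 to 559 with each library left out. With age in wild type it was 348, with 885 under DESeq2, 1617 under library weights and 267 to 1484 with each library left out. With age in mutants it was 206, between 137 and 285. For the interaction it was 18, between 1 and 3041 (123 under DESeq2), and 4 to 183 with each library left out. The interaction of salm was log2 1.25 in the main limma fit and did not pass (adjusted p = 0.169). It was 0.91 without the libraries with male transcripts. It passed with DESeq2 (adjusted p = 0.00863), with library weights (limma adjusted p = 0.000555) and without wild type young replicate 3 (limma adjusted p = 0.0157). Same-numbered libraries of different groups deviated with correlations from -0.87 to 0.88, and other-numbered ones from -0.95 to 0.93. The largest of both kinds were between young libraries, which differ in male transcripts, so a pairing by replicate number could not be judged. The replicate block called 0 of 7 genes in each comparison (FASN3 with age in mutants, limma adjusted p = 0.0398).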
